A study of Mus musculus with 18 samples.

Results

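Germinal centres are the sites inside B cell follicles where activated B cells divide, mutate their antibody genes and compete for help from T cells. The 7 genes described here mark B cells in that state: Bcl6, S1pr2, Rgs13, Mybl1, Nuggc, Gcsam and Fas. They were chosen by name as known germinal centre genes and were found by gene symbol among the 55414 gene identifiers of the deposited count table, where 7 of 7 had counts in each of the 18 libraries. The mice were wild type C57BL/6J; age and sex are not used here. Polyadenylated RNA was sequenced from macrophages isolated from spleen and, in another experiment, from whole spleens. The macrophages came from mice exposed to PM2.5 (fine airborne particles, 5 libraries) or air (5 libraries); the labels speak of 30 days and also mention filtered air afterwards, without saying whether this was a recovery period. The spleens came from mice that had breathed PM2.5 (4 libraries) or filtered air (4 libraries) for 30 days. The isolation method is not given in the sources used here. Red cell turnover is named in the study's title, and the comparison made here asks whether PM2.5 changed the transcripts of germinal centre B cells in either material.

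Each of the genes has a known part in the germinal centre. BCL6 is the transcriptional repressor that B cells need to enter and stay in the reaction, and follicular helper T cells use it too. S1PR2 is a receptor for the lipid sphingosine-1-phosphate that holds B cells in the follicle centre, and RGS13 shortens signals of G protein coupled receptors, among them chemokine receptors. MYBL1 is a transcription factor of the MYB family, NUGGC is a nuclear GTPase found in germinal centre B cells, and GCSAM is a signalling adaptor of these cells. FAS is the death receptor by which germinal centre B cells are removed. Bcl6 and Fas are also transcribed in other cell types, so that reads of both in mixed material can come from cells other than B cells.

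In the macrophage libraries 6 of the 7 genes had higher mean levels after PM2.5 and Bcl6 did not, but none passed the test with all libraries included. In whole spleen 3 of the 7 were higher and 4 lower, and again none passed. A single macrophage air library, replicate 4, carried S1pr2, Rgs13, Mybl1 and Nuggc at levels of the PM2.5 libraries. Without it, a choice made after these values were seen, Nuggc passed the test in macrophages.

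Libraries held 18848048 to 33844807 counts in PM2.5 macrophages, 18107264 to 29013034 in air macrophages, 18427891 to 19906706 in PM2.5 spleens and 16493694 to 20352346 in air spleens. Levels are CPM, the counts of a gene relative to the total of its library, scaled by TMM over all 18 libraries. Red pulp macrophage markers, 10 genes summed, lay at 14289 to 20278 CPM in PM2.5 macrophages and 16934 to 23696 CPM in air macrophages, against 563 to 848 CPM in PM2.5 spleens and 369 to 681 CPM in air spleens. The macrophage preparations were not free of B cell transcripts: the B cell marker list of 16 genes summed to 3942 to 5931 CPM in PM2.5 macrophages and 3398 to 5283 CPM in air macrophages, against 5597 to 7618 CPM in PM2.5 spleens and 7578 to 8902 CPM in air spleens. Of that list only Faim2 was at 0 in every macrophage library. Cd3e of T cells was lower than in spleen, at 4.59 to 11.2 CPM in PM2.5 macrophages and 4.75 to 7.60 CPM in air macrophages, against 80.2 to 114.0 CPM in PM2.5 spleens and 84.1 to 105.1 CPM in air spleens. Among spleens, erythroid markers reached 15007 and 9137 CPM in PM2.5 replicates 2 and 4, beside 894 and 4030 CPM in PM2.5 replicates 1 and 3, against 339 to 2889 CPM in air spleens. Transcripts of Alb, the serum albumin of liver, stood at 0.208 to 5.41 CPM in PM2.5 spleens, against 0.481 and 0.672 CPM in air spleen replicates 1 and 2 and 27.2 and 48.6 CPM in air spleen replicates 3 and 4. For macrophage PM2.5 replicate 1 the treatment label says air while the title says otherwise, and the title was followed.

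Levels between genes were compared per kilobase of annotated exon, as CPM per kb, a description without a test. In PM2.5 macrophages Bcl6 stood highest with 9.75 ± 1.62 CPM per kb, followed by Fas with 4.75 ± 0.927 and Gcsam with 3.71 ± 0.864 (SD, n = 5). Nuggc (3.42 ± 1.65), Mybl1 (2.70 ± 1.35), Rgs13 (2.51 ± 1.53) and S1pr2 (2.43 ± 0.811 CPM per kb) followed, and the neighbours among these did not differ beyond their spread. In air macrophages the order was Bcl6 with 10.2 ± 1.33, Fas with 3.05 ± 0.551 and Gcsam with 2.27 ± 0.619 CPM per kb, and the other four lay between 1.01 and 1.42 CPM per kb with SDs of 0.789 to 1.81 (n = 5). These means were raised by air replicate 4: without it S1pr2 averaged 1.07 ± 0.131, Mybl1 0.583 ± 0.158, Rgs13 0.392 ± 0.154 and Nuggc 0.313 ± 0.210 CPM per kb (SD, n = 4). In spleen Fas and Bcl6 changed places. Fas stood at 9.89 ± 1.19 CPM per kb in PM2.5 spleens and 11.9 ± 3.81 in air spleens, and Bcl6 at 9.30 ± 2.39 in PM2.5 spleens and 8.86 ± 2.01 CPM per kb in air spleens (SD, n = 4), within each other's spread. Below them in PM2.5 spleens were Gcsam (3.58 ± 0.618), Rgs13 (2.81 ± 1.08), Nuggc (2.14 ± 0.950), Mybl1 (1.96 ± 0.855) and S1pr2 (1.68 ± 0.515 CPM per kb), each within the spread of its neighbour. In air spleens Rgs13 stood above Gcsam, with 4.51 ± 2.62 and 3.20 ± 0.862 CPM per kb, and Nuggc, Mybl1 and S1pr2 followed with 2.46 ± 1.24, 2.21 ± 0.828 and 1.59 ± 0.854 CPM per kb.

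**Figure D1:**
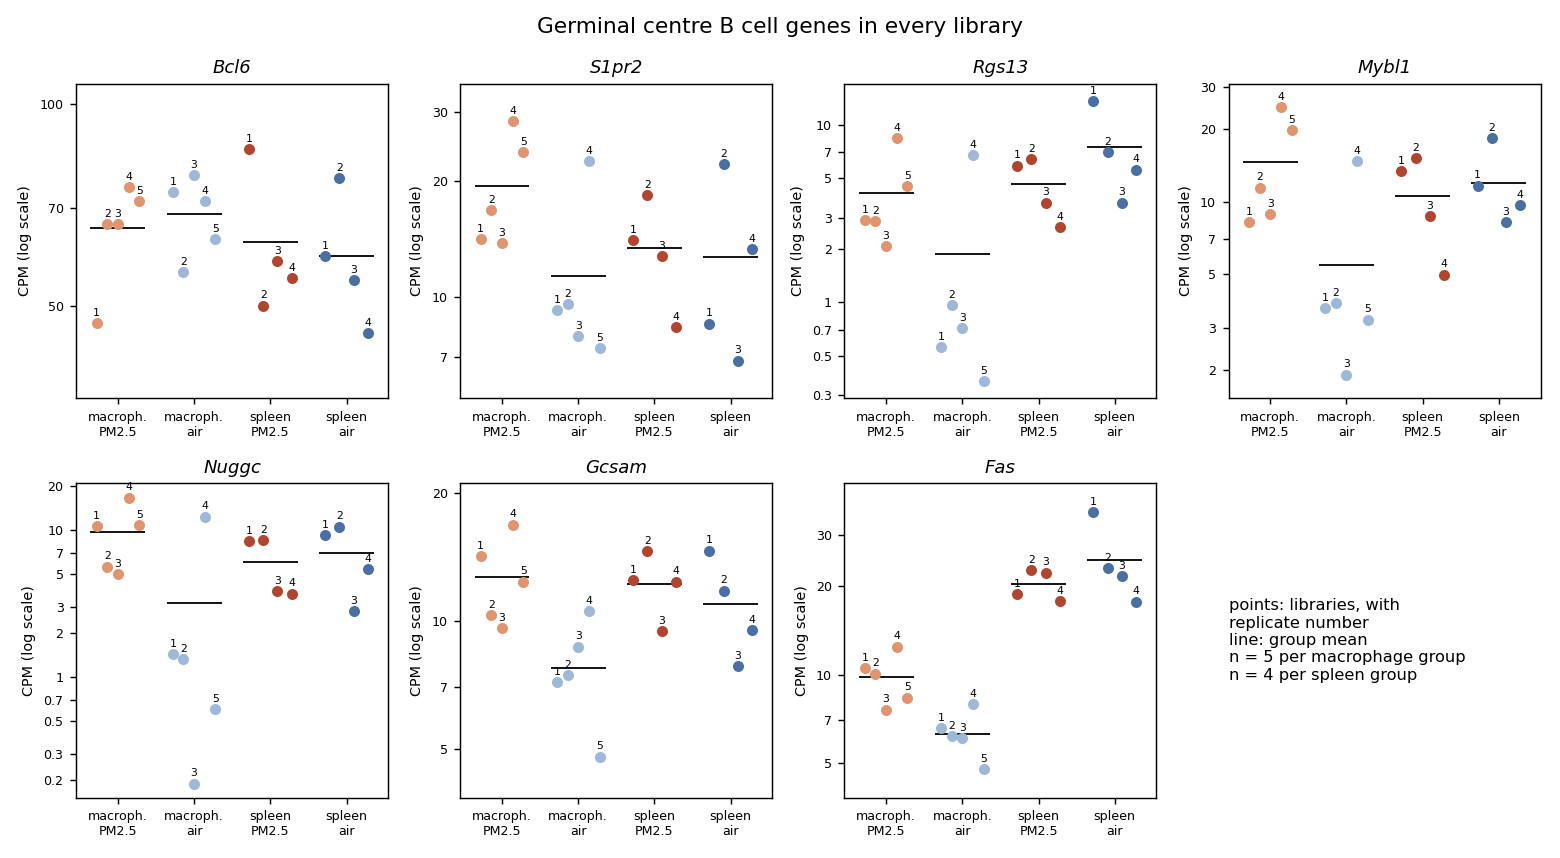
CPM of each gene in every library on a log axis, with replicate numbers beside the points and a line at the group mean (n = 5 per macrophage group and 4 per spleen group). In macrophages the PM2.5 libraries sit above 4 of the 5 air libraries for S1pr2, Rgs13, Mybl1 and Nuggc, and air replicate 4 sits among the PM2.5 libraries; in spleen the groups overlap for each gene.

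Bcl6, the repressor at the head of the programme (ENSMUSG00000022508, chr16:23965052-23988852, minus strand, GRCm38), was at a similar level in each macrophage group. It had 47.2, 66.3, 66.2, 75.2 and 71.6 CPM in PM2.5 macrophages, against 73.9, 56.2, 78.3, 71.7 and 62.9 CPM in air macrophages, replicates 1 to 5. The groups overlap, and the lowest value was that of PM2.5 replicate 1. The log2 fold change, PM2.5 over air, was -0.07 (SE 0.125, 95% interval -0.34 to 0.21), with an adjusted p of 0.864 from edgeR's quasi-likelihood test. The upper bound of this interval lay below the log2 fold change of each of the other 6 genes. The intervals of S1pr2, Rgs13 and Nuggc overlapped it, and the genes were not tested against each other. A second gene, Gm37419, overlaps Bcl6 on the opposite strand; it was listed at 0 to 13 reads of its own, beside 781 to 2083 for Bcl6 over the 18 libraries. The strand setting of the counting is not given in the sources used here, and without it reads from the overlap cannot be told apart.

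S1pr2, the confinement receptor (ENSMUSG00000043895, chr9:20962361-20976781, minus strand), had 14.1, 16.8, 13.8, 28.5 and 23.7 CPM in PM2.5 macrophages, against 9.24, 9.59, 7.93, 22.4 and 7.39 CPM in air macrophages. The PM2.5 libraries were all above air replicates 1, 2, 3 and 5, while air replicate 4 stood above 3 of them. The log2 fold change was 0.78 (SE 0.318, 95% interval 0.08 to 1.47), with an unadjusted p of 0.0310 and an adjusted p of 0.404 in edgeR. Rgs13 (ENSMUSG00000051079, chr1:144138654-144177372, minus strand), the regulator that acts on the same class of receptors, followed the same libraries at lower levels. It had 2.90, 2.87, 2.08, 8.39 and 4.51 CPM in PM2.5 macrophages, against 0.557, 0.965, 0.714, 6.73 and 0.361 CPM in air macrophages. Here the counts themselves were small, with 48 to 159 reads in PM2.5 macrophages and 6, 14, 16, 19 and 131 reads in air macrophages. The log2 fold change was 1.16 (SE 0.711, 95% interval -0.40 to 2.71), with an adjusted p of 0.582 in edgeR.

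Since the levels of S1pr2 and Rgs13 followed the same macrophage libraries, the 250 bases before their RefSeq starts are shown, 5′ to 3′ on the strand of the gene (minus strand, GRCm38.p6). Capitals mark matches to motifs of factors that act in B cells. The Rgs13 window lies at chr1:144177373-144177622 and holds 1 match to the NF-kB consensus, 165 to 156 bases before the start. The S1pr2 window lies at chr9:20976794-20977043 and holds 1 match to the E-box CAGGTG, read on the other strand, 201 to 196 bases before the start.
Rgs13 promoter: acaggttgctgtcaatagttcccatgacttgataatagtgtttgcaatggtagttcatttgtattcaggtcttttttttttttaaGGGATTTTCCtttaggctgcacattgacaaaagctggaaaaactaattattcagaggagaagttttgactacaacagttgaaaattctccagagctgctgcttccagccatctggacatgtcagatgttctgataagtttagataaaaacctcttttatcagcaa
S1pr2 promoter: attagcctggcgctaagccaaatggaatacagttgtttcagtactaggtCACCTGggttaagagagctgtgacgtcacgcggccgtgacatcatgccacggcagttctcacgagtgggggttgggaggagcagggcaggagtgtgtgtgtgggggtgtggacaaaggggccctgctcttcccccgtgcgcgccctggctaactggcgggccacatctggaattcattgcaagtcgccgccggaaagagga
The NF-kB consensus was found in 3.9% and the E-box in 17.2% of 32851 RefSeq promoter windows of the same length, both strands searched, so that neither match is rare. RefSeq windows were at hand for 5 of the 7 genes. Those of Bcl6, Gcsam and Fas held no match to either, and none of the 5 held the BCL6 core TTCCTNGAA (1.31% of windows), the octamer ATGCAAAT (1.6%) or the MEF2 consensus (2.92%). Matches of letters describe the windows only and give no information on binding.

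Mybl1 (ENSMUSG00000025912, chr1:9667415-9700209, minus strand), which encodes the transcription factor A-MYB, had 8.21, 11.4, 8.86, 24.7 and 19.7 CPM in PM2.5 macrophages, against 3.62, 3.80, 1.92, 14.7 and 3.25 CPM in air macrophages. Every PM2.5 library stood above air replicates 1, 2, 3 and 5, and PM2.5 replicates 4 and 5 stood above air replicate 4 as well. The log2 fold change was 1.43 (SE 0.516, 95% interval 0.30 to 2.55), with an unadjusted p of 0.0174 and an adjusted p of 0.373 in edgeR. Nuggc (ENSMUSG00000061356, chr14:65598546-65648531, plus strand), the nuclear GTPase gene, had 10.6, 5.63, 5.03, 16.6 and 10.7 CPM in PM2.5 macrophages, against 1.43, 1.33, 0.188, 12.3 and 0.601 CPM in air macrophages, the lowest of these from 5 reads. Air replicate 4 again stood with the PM2.5 group. The log2 fold change was 1.62 (SE 0.806, 95% interval -0.14 to 3.38), with an adjusted p of 0.503 in edgeR.

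Gcsam, the adaptor gene (ENSMUSG00000022659, chr16:45610380-45622867, plus strand), differed less but more evenly. It had 14.3, 10.3, 9.64, 16.9 and 12.4 CPM in PM2.5 macrophages, against 7.21, 7.48, 8.72, 10.6 and 4.81 CPM in air macrophages, and the groups overlapped only through air replicate 4. Its log2 fold change was 0.71 (SE 0.210, 95% interval 0.25 to 1.16), with an unadjusted p of 0.00565 and an adjusted p of 0.299 in edgeR. Fas, the death receptor gene (ENSMUSG00000024778, chr19:34290666-34327772, plus strand), had 10.5, 10.1, 7.60, 12.5 and 8.34 CPM in PM2.5 macrophages, against 6.57, 6.15, 6.05, 7.91 and 4.75 CPM in air macrophages. One PM2.5 library, replicate 3, lay below the highest air library. The log2 fold change of Fas was 0.64 (SE 0.166, 95% interval 0.28 to 0.9997), with an unadjusted p of 0.00242 and an adjusted p of 0.276 in edgeR. Fas was the member that DESeq2 called in macrophages, with an adjusted p of 0.0388.

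Of the 7 genes, 0 were called in macrophages by edgeR, where 0 of 15696 genes tested were called (0%), and 0 by limma-voom. At an unadjusted p under 0.05 in edgeR, 4 of the 7 (S1pr2, Mybl1, Gcsam and Fas) were higher, against 10.9% of all genes tested in either direction. DESeq2 called 1 of the 7 and 1.11% of all genes. A log2 fold change above 1 was reached by 3 of the 7 (Rgs13, Mybl1 and Nuggc), against 1.67% of all genes, and 6 of the 7 were above 0, against 51.4% of all genes. The groups did not overlap for 0 of the 7, against 1.38% of all genes with PM2.5 higher and 0.86% with PM2.5 lower. The median log2 fold change of the 7 was 0.78, beside 0.01 over all genes tested. In such bulk material a change in the number of cells of a type and a change in RNA per cell cannot be told apart.

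Macrophage air replicate 4 was then left out, a library singled out after its values of S1pr2, Rgs13, Mybl1 and Nuggc were seen. The lowest PM2.5 library stood above the highest of the other 4 air libraries for 6 of the 7 genes, against 3.5% of all genes. For S1pr2, Rgs13, Mybl1 and Nuggc this and the tests below follow in part from that choice. Replicate 4 was also the highest air library for Gcsam (10.6 CPM) and Fas (7.91 CPM), so their separation rests on leaving it out too. With all libraries included, 0 of the 7 were separated. Nuggc then passed the test, at 3.46 on the log2 scale (SE 0.531, adjusted p = 0.0470 in edgeR), where 0.105% of all genes (17 of 16203) were called. Mybl1 (log2 fold change 2.23, adjusted p = 0.0523), Rgs13 (2.66, adjusted p = 0.0584) and S1pr2 (1.18, adjusted p = 0.0768) came near the threshold in that fit without reaching it. The same held less closely for Fas (0.73, adjusted p = 0.110) and Gcsam (0.84, adjusted p = 0.122), and Bcl6 stayed at -0.05 (adjusted p = 0.909).

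**Figure D2:**
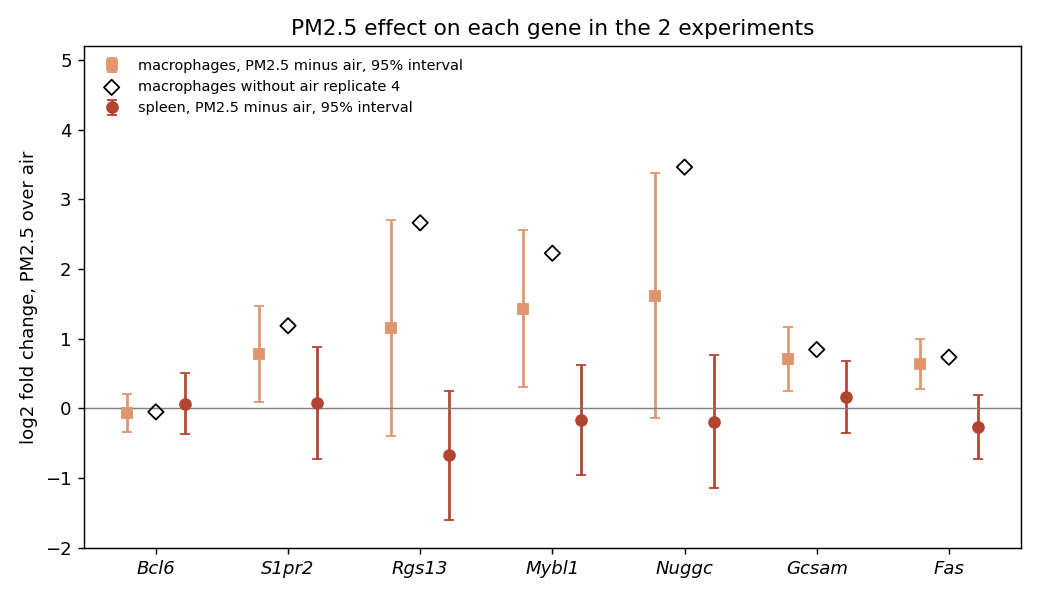
Log2 fold change (PM2.5 over air) of each gene in macrophages and in spleen with its 95% interval from edgeR, and, as open diamonds, in macrophages without air replicate 4. In spleen each interval spans 0; in macrophages Bcl6 stays near 0 in both fits and Nuggc is at 1.62 with all libraries and 3.46 without air replicate 4.

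In whole spleen the same genes did not separate the groups. Bcl6 had 85.7, 50.1, 58.3 and 55.0 CPM in PM2.5 spleens, against 59.4, 77.6, 54.7 and 45.6 CPM in air spleens (log2 fold change 0.07, SE 0.197, adjusted p = 0.894 in edgeR). S1pr2 had 14.1, 18.3, 12.8 and 8.34 CPM in PM2.5 spleens, against 8.53, 22.03, 6.85 and 13.3 CPM in air spleens (0.08, SE 0.363, adjusted p = 0.939 in edgeR). Neither the repressor nor the confinement receptor differed beyond the spread of the libraries. Rgs13 had 5.88, 6.43, 3.64 and 2.66 CPM in PM2.5 spleens, against 13.6, 7.01, 3.64 and 5.59 CPM in air spleens. Its log2 fold change of -0.67 (SE 0.420, 95% interval -1.60 to 0.25, adjusted p = 0.455 in edgeR) was the furthest from 0 of the 7 and rested largely on air replicate 1, without which it was -0.22. The sign of this value was the same in every spleen fit that left out 1 library.

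Mybl1 had 13.4, 15.2, 8.71 and 4.99 CPM in PM2.5 spleens, against 11.7, 18.3, 8.22 and 9.65 CPM in air spleens (log2 fold change -0.17, SE 0.358, adjusted p = 0.844 in edgeR). Nuggc had 8.34, 8.49, 3.82 and 3.68 CPM in PM2.5 spleens, against 9.19, 10.5, 2.79 and 5.43 CPM in air spleens (-0.19, SE 0.436, adjusted p = 0.861 in edgeR). In each spleen group replicates 1 and 2 stood above replicates 3 and 4 for Mybl1 and for Nuggc. Gcsam had 12.5, 14.6, 9.47 and 12.4 CPM in PM2.5 spleens, against 14.7, 11.8, 7.84 and 9.54 CPM in air spleens (0.16, SE 0.232, adjusted p = 0.764 in edgeR). Fas had 18.8, 22.7, 22.3 and 17.8 CPM in PM2.5 spleens, against 35.9, 23.1, 21.6 and 17.7 CPM in air spleens (-0.27, SE 0.211, adjusted p = 0.560 in edgeR). Air replicate 1 held the highest value of both Rgs13 and Fas among the 8 spleens.

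Of the 7 genes, 0 were called in spleen by edgeR, against 0.0121% of all genes (2 of 16551), and 0 by DESeq2 or limma-voom. At an unadjusted p under 0.05, 0 of the 7 passed, against 16.7% of all genes. Higher in PM2.5 spleens were 3 of the 7, against 51.8% of all genes, and the median log2 fold change of the 7 was -0.17, beside 0.02 over all genes. Groups without overlap were found for 0 of the 7, against 4.31% of all genes with PM2.5 higher and 4.66% with PM2.5 lower. The 95% intervals of the log2 fold change ran from -0.72 to 0.88 for S1pr2 and from -1.15 to 0.77 for Nuggc, so that changes within those bounds are not excluded by these spleens. Without PM2.5 replicates 2 and 4, or without air replicates 3 and 4, 0 of the 7 were called as well.

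The PM2.5 effect in macrophages minus that in spleen was tested in a joint fit of all 18 libraries. Fas had the smallest p, with a difference of 0.90 on the log2 scale (SE 0.275, 95% interval 0.33 to 1.48, unadjusted p = 0.00397, adjusted p = 0.0848 in edgeR), and DESeq2 gave it an adjusted p of 0.0424. For Mybl1 the difference was 1.60 (SE 0.696, unadjusted p = 0.0331, adjusted p = 0.203 in edgeR). Rgs13 (1.83, adjusted p = 0.274), Nuggc (1.81, adjusted p = 0.340), S1pr2 (0.70, adjusted p = 0.459), Gcsam (0.54, adjusted p = 0.346) and Bcl6 (-0.14, adjusted p = 0.784) did not pass in edgeR either. In all, 0 of the 7 were called, against 1.46% of all genes (259 of 17779). At an unadjusted p under 0.05 there were 2 of the 7, against 20.6% of all genes. DESeq2 called 1 of the 7, against 5.87% of all genes, and 3 of the 7 had a difference above 1, against 4.57%. Without macrophage air replicate 4, edgeR called Rgs13 (3.36, adjusted p = 0.0233), Nuggc (3.66, adjusted p = 0.0244) and Mybl1 (2.41, adjusted p = 0.0412), against 0.927% of all genes. That library was singled out for its high values of these same genes, so the calls follow in part from the choice. The experiments differ in material and in how the labels describe the exposure, and these cannot be told apart in this difference.

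The genes moved together from library to library within a group, described here by Pearson's r of log2 CPM after subtraction of group means. In macrophages r was above 0 for 20 of the 21 pairs of the 7 genes, with a median of 0.67 over 10 libraries. S1pr2 with Mybl1 had the highest value, 0.97, followed by S1pr2 with Rgs13 at 0.96. The pairs with Bcl6 reached at most 0.40. Gcsam and Fas, the pair with the more even differences, had an r of 0.86 with each other. In spleen r was above 0 for 20 of the 21 pairs as well, with a median of 0.49 over 8 libraries, a highest value of 0.87 for Rgs13 with Nuggc, and -0.06 for S1pr2 with Fas. Air replicate 4, which was high for 4 of the genes, is among the macrophage libraries, and the values of 1 library share its depth and scaling.

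The gene most like the mean of the 7 in macrophages was Fcho1 (r = 0.98), and Hmces (0.97), Havcr1 (0.94) and AU020206 (0.94) were also among the nearest of 13693 genes over 10 libraries. In spleen Rnf6 (0.98) was most like the mean of the 7, and Gdap2 (0.96), Gm26839 (0.96) and Nxpe4 (0.96) were also among the nearest of 14665 genes over 8 libraries. With each gene taken alone, the nearest gene in macrophages was Ciita for Bcl6, Hmces for S1pr2, Havcr1 for Rgs13, Fcho1 for Mybl1, Mef2b for Nuggc, Bend5 for Gcsam and Zfp422 for Fas, with r from 0.95 to 0.98. In spleen these were Uggt1, Gm29237, Srfbp1, Chsy1, Sass6, Shtn1 and Isca2 in the same order of genes, with r from 0.97 to 0.99. Mef2b, a transcription factor gene of germinal centre B cells, had 8.88, 6.13, 6.85, 13.5 and 11.8 CPM in PM2.5 macrophages, against 1.83, 2.47, 0.790, 11.0 and 1.56 CPM in air macrophages (log2 fold change 1.42, adjusted p = 0.404 in edgeR).

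**Figure D3:**
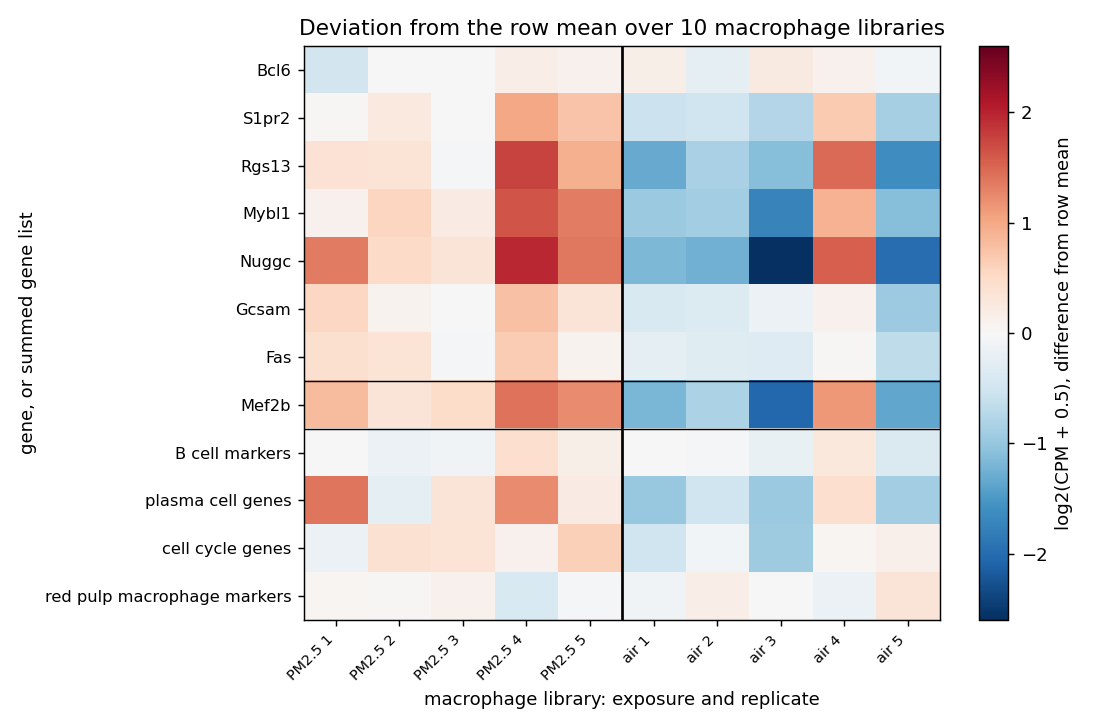
Deviation of log2(CPM + 0.5) from the row mean in the 10 macrophage libraries, PM2.5 on the left and air on the right, for the 7 genes, for Mef2b and for summed marker lists. PM2.5 replicates 1, 2, 4 and 5 and air replicate 4 are above the mean for S1pr2, Rgs13, Mybl1, Nuggc and Mef2b, and the other 4 air libraries are below it, while the B cell markers vary less.

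Of the wider germinal centre programme, a list of 30 further genes, none was called by edgeR in either experiment. In macrophages 20 of 29 tested were higher in PM2.5 and 9 lower. Their median log2 fold change was 0.06, beside 0.01 over all genes, and 6 of the 29 had an unadjusted p under 0.05 in edgeR, all higher, against 10.9% of all genes in either direction. The mean of the list had an r of 0.96 with the mean of the 7 genes over the 10 macrophage libraries and 0.36 over the 8 spleens, a description after subtraction of group means. Among them Ezh2, the histone methyltransferase of dividing germinal centre cells, had 45.05 ± 2.74 CPM in PM2.5 macrophages and 35.9 ± 3.79 CPM in air macrophages (SD, n = 5; log2 fold change 0.33, adjusted p = 0.275 in edgeR). Ung, a uracil-DNA glycosylase gene of base excision repair, had 10.5 ± 1.06 CPM in PM2.5 macrophages and 7.68 ± 1.30 CPM in air macrophages (0.45, adjusted p = 0.299 in edgeR). The most abundant genes of the list, Plxnb2 (-0.28), Irf8 (0.01) and Cd83 (-0.24), are transcribed in macrophages as well. In spleen 9 of 30 were higher and 21 lower, with a median of -0.10, and 4 had an unadjusted p under 0.05 in edgeR, against 16.7% of all genes in either direction. Plxnb2 had 76.4 ± 6.53 CPM in PM2.5 spleens and 50.2 ± 12.2 CPM in air spleens (SD, n = 4; 0.60, adjusted p = 0.135 in edgeR). Tnfrsf13c, the receptor for the survival factor BAFF, had 172.8 ± 25.7 CPM in PM2.5 spleens and 227.5 ± 17.2 CPM in air spleens (-0.40, adjusted p = 0.167 in edgeR). The effect in macrophages minus that in spleen passed for 1 of the 30, Plxnb2, at -0.89 (adjusted p = 0.0483 in edgeR).

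Partners of the single genes were read from shorter lists, and edgeR called 0 of their genes in either experiment. Of the 8 co-repressors and relatives of BCL6, 2 were higher and 6 lower in PM2.5 macrophages (median -0.08), and 5 higher and 3 lower in PM2.5 spleens (0.08). Ncor1, which BCL6 recruits, had a log2 fold change of -0.11 in macrophages and 0.12 in spleen. Of the 10 genes around S1PR2, other sphingosine-1-phosphate receptors and the Gna13 pathway, 5 were higher in macrophages (median -0.00) and 4 in spleen (-0.02). Arhgef1, which acts below the receptor, stood at -0.03 in macrophages and 0.20 in spleen. Of the 8 other RGS genes of lymphocytes, 3 were higher in macrophages (median -0.08) and 2 in spleen (-0.09), and Rgs1 had 699.3 ± 99.8 CPM in PM2.5 macrophages and 825.2 ± 136.6 CPM in air macrophages (-0.23, adjusted p = 0.542 in edgeR). S1pr2 and Rgs13 themselves stood at 0.78 and 1.16 in macrophages.

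Both other MYB genes, which act in dividing cells, were higher in PM2.5 macrophages at an unadjusted p under 0.05. Myb had 19.1 ± 5.64 CPM in PM2.5 macrophages and 11.3 ± 2.41 CPM in air macrophages (log2 fold change 0.76, adjusted p = 0.287 in edgeR), and Mybl2 had 20.7 ± 5.23 CPM in PM2.5 macrophages and 12.4 ± 4.99 CPM in air macrophages (0.75, adjusted p = 0.381). In spleen they stood at 0.13 and 0.90 without passing. Of the 10 genes of the death receptor pathway of FAS, 7 were higher in PM2.5 macrophages (median 0.12) and 2 in PM2.5 spleens (-0.14). Casp8, the caspase that FAS activates, had 84.1 ± 4.17 CPM in PM2.5 spleens and 104.0 ± 13.7 CPM in air spleens (-0.31, adjusted p = 0.223 in edgeR).

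Most genes of several other marker lists were higher in PM2.5 macrophages too, and their part in the difference of the 7 genes was not tested. Over all genes 51.4% were higher in PM2.5 macrophages, and 10.9% had an unadjusted p under 0.05 in edgeR in either direction. Of the B cell markers 13 of 15 tested were higher in PM2.5 macrophages, with a median log2 fold change of 0.17 and 0 called. Cd79a, part of the B cell receptor, had 533.5 ± 96.8 CPM in PM2.5 macrophages and 448.6 ± 90.4 CPM in air macrophages (0.25, adjusted p = 0.576 in edgeR). Plasma cell genes were higher for 11 of 12 (median 0.80, 0 called, 9 at an unadjusted p under 0.05), and summed to 1574 to 4807 CPM in PM2.5 macrophages, against 930 to 2507 CPM in air macrophages, where replicate 4 was again the highest. Jchain, which joins secreted IgM and IgA, had 2223 ± 1240 CPM in PM2.5 macrophages and 744.4 ± 567.1 CPM in air macrophages (1.58, adjusted p = 0.311 in edgeR). Genes of follicular dendritic cells, the stroma of the germinal centre, were higher for 8 of 10 (median 0.52, 0 called, 7 at an unadjusted p under 0.05). Among these Mfge8 had 78.4 ± 31.7 CPM in PM2.5 macrophages and 28.6 ± 8.83 CPM in air macrophages (1.46, adjusted p = 0.258 in edgeR), and its difference from the spleen effect, 1.62, passed in edgeR (adjusted p = 0.0325). The most abundant genes of this list were Cr2 (0.07, adjusted p = 0.904 in edgeR), Fcgr2b (0.37, adjusted p = 0.382) and Fcer2a (-0.10, adjusted p = 0.804). The difference from the spleen effect also passed in edgeR for 2 of 10 T cell markers, Cd3d (1.38, adjusted p = 0.0316) and Trbc2 (1.32, adjusted p = 0.0466). In the other direction it passed for 2 of 10 red pulp macrophage markers. Cell cycle genes were higher in PM2.5 macrophages for 16 of 16 (median 0.60), neutrophil genes for 7 of 7 (median 1.91) and T cell markers for 9 of 10 (median 0.49), with 0 called in each. Of these 14, 7 and 4 were higher at an unadjusted p under 0.05 in edgeR. The PM2.5 libraries lay above all air libraries for 5 cell cycle genes and 4 follicular dendritic cell genes, against 1.38% of all genes. This held for 0 of the neutrophil genes, of the T cell markers and of the 7 germinal centre genes. Follicular helper T cell genes were higher for 6 of 8 tested (median 0.31). Red pulp macrophage markers were lower for 9 of 10 (median -0.18, 0 called, 3 lower at an unadjusted p under 0.05 in edgeR).

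Over the 10 macrophage libraries the mean of the 7 genes, centred on the groups, had an r of 0.90 with the B cell markers, 0.74 with the plasma cell genes and -0.72 with the red pulp macrophage markers. Its r was 0.53 with the follicular dendritic cell genes, 0.32 with the cell cycle genes and 0.31 with the T cell markers. With the follicular helper T cell genes it was 0.29, and with the neutrophil genes -0.29. In the 8 spleens its r was -0.21 with the B cell markers, 0.91 with the plasma cell genes and 0.89 with the follicular helper T cell genes. B cell markers were lower in PM2.5 spleens for 14 of 15 tested (median -0.21, 0 called, 6 at an unadjusted p under 0.05). Over all genes in spleen 51.8% were higher, and 16.7% had an unadjusted p under 0.05 in edgeR in either direction. Follicular helper T cell genes were lower for 6 of 9 tested in PM2.5 spleens (median -0.11), and follicular dendritic cell genes for 8 of 10 (median -0.14). Erythroid genes were higher for 10 of 10 in PM2.5 spleens (median 3.93, 0 called in edgeR), and the 7 germinal centre genes had an r of 0.07 with that list.

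To set the genes against the B cell content of each library, their counts were divided by the summed counts of the B cell marker list. Fas had 17.1 to 25.5 counts per 10000 B cell marker counts in PM2.5 macrophages, against 14.0 to 15.7 in air macrophages. Gcsam had 23.3 to 32.5 in PM2.5 macrophages, against 14.2 to 22.6 in air macrophages. On this scale every PM2.5 library lay above every air library for Fas, as for 0.42% of all genes, and air replicate 4 stood with the other air libraries for both genes. For Gcsam the groups were separated only narrowly, with 23.3 at its lowest in PM2.5 macrophages and 22.6 at its highest in air macrophages. For Nuggc the values were 24.1, 14.3, 12.2, 27.9 and 21.95 in PM2.5 macrophages, against 3.30, 3.12, 0.488, 23.3 and 1.77 in air macrophages, so that air replicate 4 remained apart. The same library stood apart for Rgs13 with 12.7, against 5.02 to 14.1 in PM2.5 macrophages and 1.06 to 2.27 in the other air libraries, for Mybl1 with 27.8, against 18.7 to 41.6 and 4.97 to 9.55, and for S1pr2 with 42.5, against 32.2 to 48.5 and 20.6 to 22.5. Bcl6 had 107.6 to 168.1 in PM2.5 macrophages and 132.1 to 203.1 in air macrophages. In an edgeR fit scaled to the B cell markers 0 of the 7 were called in macrophages, with log2 fold changes of 0.51 for Fas (adjusted p = 0.585), 0.57 for Gcsam (adjusted p = 0.428) and 1.34 for Mybl1 (adjusted p = 0.228). In spleen the values per 10000 B cell marker counts overlapped for each of the 7, for example 24.6 to 40.5 for Fas in PM2.5 spleens, against 19.9 to 47.3 in air spleens.

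**Figure D4:**
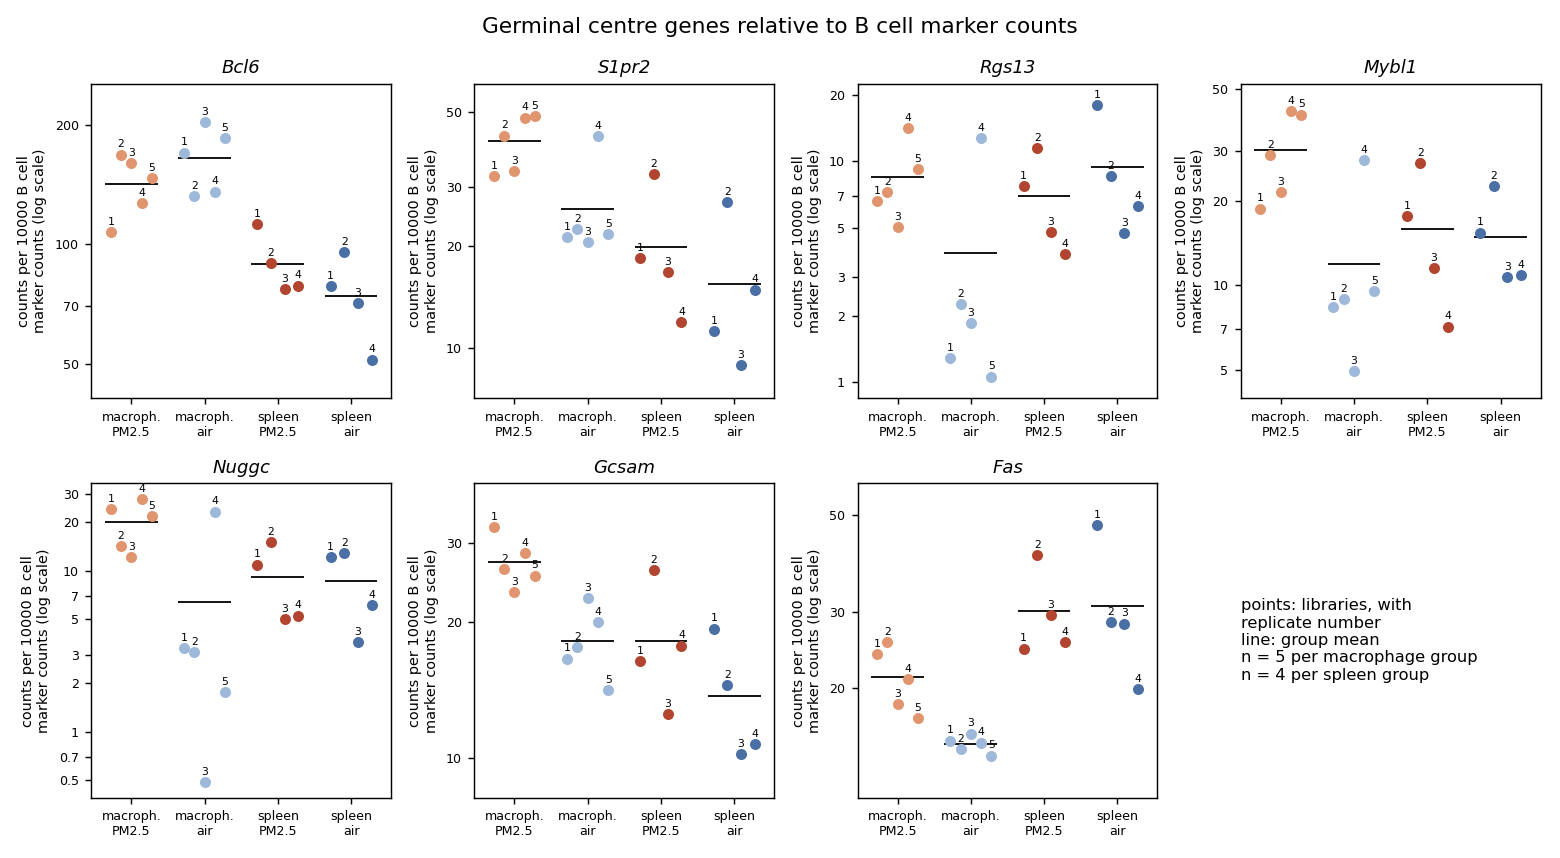
Counts of each gene per 10000 counts of the B cell marker list in every library on a log axis, with replicate numbers and a line at the group mean (n = 5 per macrophage group and 4 per spleen group). In macrophages the PM2.5 libraries lie above all air libraries for Fas and, narrowly, for Gcsam (0.42% of all genes), and air replicate 4 remains with the PM2.5 libraries for S1pr2, Rgs13, Mybl1 and Nuggc.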

How the data were processed

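Raw counts, whole reads per Ensembl gene without normalization, were deposited by the authors in 1 table of 18 libraries, and all its columns matched a sample. Per the submitters' processing notes they used FastQC 0.10.1, HTSeq 0.10.0 and the mouse build named mm10 or GRCm38; no source used here names the aligner, annotation release or strand setting. Per the labels' protocols, libraries were made from polyadenylated RNA with a NEBNext Ultra II kit. Of 55414 identifiers, 52081 matched a symbol in GENCODE M21, and the 3333 others carried 0.343% of counts.

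The 7 genes, the lists of related genes and cell markers, the tests and the rule for named genes were chosen with earlier results of these data known. Libraries were grouped by title, and CAP in the titles was read as PM2.5. The analysis used edgeR 4.0.16 under R 4.3.3: filterByExpr (minimum count 10, minimum total 15), TMM scaling, and a two-sided quasi-likelihood test of the group means with Benjamini-Hochberg adjustment over all genes tested, threshold 0.05. All 7 genes passed the filter in each fit. Each experiment was fitted alone and the difference of effects in 1 joint fit. The titles number the libraries as biological replicates (bio rep). Where nothing further says that libraries came from separate animals, p-values measure only the spread between them. Alternatives used DESeq2 1.42.0, limma-voom (limma 3.58.1), other scalings and filters, a replicate block and fits without single libraries. Exon length was the union of M21 exons. No library was a copy of another in its group. Likeness used log2 CPM with a prior count of 2, centred on group means, over genes with a mean of at least 1 CPM. From each list the text names from the 3 most abundant members and those with an unadjusted p under 0.01; Jchain, Cd79a, Casp8, Mybl2 and Mef2b are among these or the genes most like the 7, and Alb, Cd3e and Faim2 were added after their values were seen. A gene that the rule named is not reported here. The steps were also run on simulated counts with planted changes. There every gene had the same setting for its spread and no library was made to stand apart. That run therefore gives no error rate for the 7 genes.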

Additional observations from a re-analysis of the deposited data

Results flagged for a closer look

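In macrophage air replicate 4, S1pr2 had 22.4 CPM, and the next highest of the 5 air libraries had 9.59 CPM. Rgs13 had 6.73 CPM there, and the next library 0.965 CPM. Mybl1 had 14.7 CPM there, and the next library 3.80 CPM. Nuggc had 12.3 CPM there, and the next library 1.43 CPM. In each case the gap between this library and its nearest neighbour took up most of the range of its group, by Dixon's test at the 95% level. The test was run on CPM, and on a log scale a gap at the high end takes up less of the range. Such a gap was found in 4 of 28 groups of a gene and a condition. A rate of about 1 in 20 by chance would hold for independent groups only, and these are not independent. All 4 fall in the same library and in genes that had an r of 0.85 to 0.97 with each other in macrophages. Air replicate 4 is among the libraries that gave this r, so the r is not separate from the gaps. The library was also the highest of the air libraries for the summed B cell markers (5283 CPM) and plasma cell genes (2507 CPM). Macrophage PM2.5 replicate 4 was in turn the highest PM2.5 library for S1pr2 (28.5 CPM), Rgs13 (8.39), Mybl1 (24.7) and Nuggc (16.6 CPM). It was also the highest PM2.5 library for the summed B cell markers (5931 CPM), though not for the plasma cell genes. The part of these markers, or of the shared replicate number, in the levels was not tested.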

How the results depend on the processing

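The count of the 7 genes called was 0 in spleen under every alternative run. In macrophages it was 1 (Fas) with DESeq2 and 0 to 1 as each library was left out, the 1 being Nuggc without air replicate 4. For the difference between experiments it was 1 (Fas) with DESeq2 and 0 to 3 as each library was left out. The cause was not tested. Over all genes, the 2 calls in spleen became 1 with DESeq2 size factors or limma-voom, 12 under a filter of 1 CPM throughout a group, 144 with scaling to B cell markers, 461 without a filter, 830 with DESeq2 and 1050 in the joint fit. They were 0 without PM2.5 replicates 2 and 4 or air replicates 3 and 4, both chosen after seeing the data, and 0 to 219 as each library was left out, with 219 without air replicate 2. The 0 calls in macrophages became 1 without a filter, 15 with scaling to B cell markers, 175 with DESeq2 and 0 to 17 as each library was left out. The 259 calls for the difference became 3 with limma-voom, 409 with scaling to B cell markers, 1044 with DESeq2 and 68 to 1317 as each library was left out. Signs turned for fold changes near 0: in spleen Mybl1 at 0.089 and Nuggc at 0.065 with scaling to B cell markers, and Bcl6 at -0.13, S1pr2 at -0.19 and Gcsam at -0.10 without air replicates 3 and 4. As each library was left out, spleen values ran from -0.13 to 0.22 for Bcl6, -0.13 to 0.48 for S1pr2, -0.39 to 0.11 for Mybl1 and -0.46 to 0.076 for Nuggc. In macrophages Nuggc (1.62) was 2.83 with limma-voom, 2.53 with the block and 1.10 with PM2.5 replicate 1 counted as air, and Rgs13 (1.16) was 1.83 with limma-voom and 1.68 with the block, none past the threshold. Bcl6 there was 0.093 with PM2.5 replicate 1 counted as air and 0.015 with it left out (range -0.14 to 0.015), and for the difference it ran from -0.30 to 0.051. With a replicate block, 3 genes in spleen, 0 in macrophages and 0 of the 7 genes were called. Same-numbered libraries correlated at -0.14 to 0.28. In macrophages replicates 4 and 5 gave the highest values of all pairs, 0.28 and 0.25. Macrophage pairs of unlike number ran from -0.35 to 0.17. The remaining same-numbered pairs lay at -0.14 to 0.06, so the numbers were not taken to pair animals. A link between the replicates 4 or 5 of the macrophage groups was not tested. The lowest counts were 6 reads for Rgs13 and 5 for Nuggc, so counting error is widest there.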

Other observations

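Spleen air replicate 1 had 1.44 CPM of Mef2b and 22.1 CPM of Fcho1, while PM2.5 spleens had 4.47 to 13.9 CPM of Mef2b and 118.1 to 129.95 CPM of Fcho1, and the other air spleens 3.97 to 17.9 CPM and 95.04 to 132.4 CPM. The same library was the highest of the 8 spleens for Rgs13 and Fas. Mef2b and the mean of the 7 genes had an r of 0.94 over the 10 macrophage libraries and 0.27 over the 8 spleens, both a description after subtraction of group means.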
